A study of Homo sapiens with 7 samples.

Results

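Re-expression of wild-type KDM5A in KDM5A-null colon cancer cells was examined here for what it left of H3K4me3 region by region. Regions in a window taken for the KDM5A gene were left out. H3K4me3, histone H3 trimethylated on lysine 4, was profiled by ChIP-seq (sequencing of immunoprecipitated chromatin) in HCT116, an established human colon cancer line, of genotype KDM5A-/-. Both groups are therefore of the null genotype, and both were transfected, with empty vector in the control and wild-type KDM5A in the other group. Harvest was at 24 h after transfection. A further transfection carried a mutant KDM5A, and its values are given only side by side. Each group is 1 H3K4me3 library of 1 null line, and the share of cells that were transfected is not given in the labels. Levels are in RPM, reads scaled to a common library total, and the libraries held 10713021 reads (empty vector), 10852411 reads (wild-type KDM5A) and 9906508 reads (mutant). Of the 30840 listed regions, the 30820 outside the KDM5A window were members, and 2 of these, on chromosome Y, were not used. No replicate exists on either side, so no p-value is given, and every 95% interval covers counting error only. PCR copies are not independent molecules, so these intervals may be too narrow even for that. In a mixed culture, fewer cells that carry the mark and less mark per cell cannot be told apart.

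KDM5A belongs to the KDM5 (JARID1) family of demethylases, which remove methyl groups from lysine 4 of histone H3. The trimethyl mark sits at the start of active genes and also, at lower density, over the CpG-rich starts of many developmental regulators that are silent or barely transcribed, where Polycomb complexes often lie as well. KDM5A carries an ARID domain known to bind CCGCCC-containing DNA.

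The 20 regions inside KDM5A, at chromosome 12, 394565 to 493388 of hg19, held 4.01 RPM (43 reads) in the control and 396 RPM (4297 reads) after KDM5A transfection, and they were left out by rule. The next region, at 496602 to 499566, lay outside the window and was kept as a member. It had 55.1 RPM and 57.96 RPM, a ratio of 1.05 (0.939 to 1.18). Whether it belongs to KDM5A was not examined. Of 8 colon epithelial marker genes, 6 had a region at their start, among them EPCAM, CDH1, KRT8, KRT18 and CDX2, while VIL1 and CDX1 had none. None of the blood markers PTPRC, CD3E and SPI1 and none of the liver markers ALB and APOA1 had a region, and of the neuronal markers SYP had a weak one of 3.36 RPM and 4.24 RPM. VIM and ZEB1, both mesenchymal markers, had strong regions.

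Genes were placed by gene starts on hg19 recalled from general knowledge, since no annotation of that build was used. These positions were checked against a RefSeq table of GRCh38.p14: all 186 genes lay on the same chromosome, and 160 of 161 neighbouring pairs stood in the same order, the exception being the overlapping pair KRT8 and KRT18. A region is said to lie at a gene's start if it spans the start or comes within 1 kb of it. Regions that could not be placed keep their coordinates. The promoter sequences below come from RefSeq, GRCh38.p14, and give the 250 bases before the gene start, 5' to 3' on the gene's strand, with every CG in capitals. They are shown because the first 4 belong to genes whose H3K4me3 was among the most reduced, and BATF2 to a gene whose H3K4me3 was among the most raised. All 5 genes were chosen for their ratios.
POU3F3 (chr2:104853865-104854114, + strand, 18 CpG): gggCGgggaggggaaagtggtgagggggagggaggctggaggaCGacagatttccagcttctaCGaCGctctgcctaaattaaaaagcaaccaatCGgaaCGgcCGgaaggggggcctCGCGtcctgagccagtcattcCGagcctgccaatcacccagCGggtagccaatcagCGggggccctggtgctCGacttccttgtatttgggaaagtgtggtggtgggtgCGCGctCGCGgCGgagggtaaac
ASXL3 (chr18:33577969-33578218, + strand, 34 CpG): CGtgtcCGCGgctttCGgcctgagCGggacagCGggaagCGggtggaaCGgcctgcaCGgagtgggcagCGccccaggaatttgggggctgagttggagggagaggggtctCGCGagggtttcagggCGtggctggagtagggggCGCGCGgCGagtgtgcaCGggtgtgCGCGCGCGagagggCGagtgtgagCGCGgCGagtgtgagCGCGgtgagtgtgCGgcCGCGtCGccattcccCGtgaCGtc
TLE4 (chr9:79571715-79571964, + strand, 20 CpG): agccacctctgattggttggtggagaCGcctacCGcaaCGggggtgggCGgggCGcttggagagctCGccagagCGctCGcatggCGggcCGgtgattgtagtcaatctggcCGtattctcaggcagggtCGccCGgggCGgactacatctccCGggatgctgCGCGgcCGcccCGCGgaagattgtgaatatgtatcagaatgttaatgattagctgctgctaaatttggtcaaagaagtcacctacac
CDH2 (chr18:28177131-28177380, - strand, 17 CpG): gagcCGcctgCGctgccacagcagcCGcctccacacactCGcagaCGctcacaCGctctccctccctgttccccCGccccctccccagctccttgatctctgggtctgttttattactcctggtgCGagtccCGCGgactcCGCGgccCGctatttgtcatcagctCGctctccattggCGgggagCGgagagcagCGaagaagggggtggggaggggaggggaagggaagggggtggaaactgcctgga
BATF2 (chr11:64990278-64990527, - strand, 7 CpG): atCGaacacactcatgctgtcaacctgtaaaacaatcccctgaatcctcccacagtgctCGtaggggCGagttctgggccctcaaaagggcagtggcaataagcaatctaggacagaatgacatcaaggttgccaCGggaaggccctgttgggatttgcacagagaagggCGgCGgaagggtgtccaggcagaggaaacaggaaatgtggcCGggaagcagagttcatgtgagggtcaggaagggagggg

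The 4 reduced promoters held between 17 and 34 CpG in 250 bases and the BATF2 promoter held 7, against a median of 11 over 27305 RefSeq promoters (quartiles 3 and 23). Among the 22 genes at whose starts the ratio was lowest, 13 matched the promoter table, with a median of 26 CpG (quartiles 17 and 36) and a median GC content of 71.6% against 58% over all. AUTS2 had the most, 49 CpG, and KCNJ4 the fewest, 4. The letters CCGCCC, searched on both strands, occurred in 8 of the 13 reduced promoters and in 42.3% of all promoters. A match is a description of the letters, not a bound site. The 27305 promoters were not limited to genes with an H3K4me3 region, from which the reduced ones were drawn. The CpG, GC and CCGCCC figures therefore do not set reduced promoters apart from other marked ones, and GC content was not matched.

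Regions were called lower or higher when the log2 ratio of wild-type KDM5A to empty vector, with 0.7 RPM added to each side, passed 1.5-fold. Called strong here are regions of 20 RPM or more on the mean of the 3 H3K4me3 libraries, middle those of 5 to 20 RPM and weak those under 5 RPM. The median log2 ratio of the strong regions, −0.15, is the level against which the values below can be read. Among the 15108 regions of 5 RPM or more, 145 were lower (0.96%) and 30 were higher (0.199%). Lower regions were thus 82.9% of those past 1.5-fold, but 46.8% when ratios were centred on the strong regions, with 74 lower and 84 higher. Middle regions held nearly all of them, with 140 of 4226 lower (3.31%) and 30 higher (0.71%). Strong regions held 5 lower (0.0459%) and 0 higher of 10882. With the mutant set against the same empty vector library, 328 of the 15108 regions of 5 RPM or more were lower. The 5 RPM filter uses a mean that includes both compared libraries, so some regions passed it only through their higher side. With levels taken from the mutant library alone, 98 of 14926 regions were lower with wild-type KDM5A and 40 were higher.

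Middle regions were sorted by width and spacing. Wide regions, of 2 kb or more, were called lone if no other wide region lay within 100 kb, crowded if one lay within 10 kb, and between otherwise. Of 279 lone wide middle regions 52 were lower (18.6%), with a median log2 ratio of −0.18 (quartiles −0.46 and 0.011). After centring on the strong regions 34 were lower, and with levels taken from the mutant library alone 34 of 295 were. Of 261 crowded ones 7 were lower (2.68%; 6 after centring and 3 of 277 by the mutant library), with a median of −0.018, and of 509 between these classes 13 were lower (2.55%), also with a median of −0.018. The lone median lay 0.165 below the crowded median on the log2 scale, a difference that a factor common to a library does not change. Summed over the class, lone wide middle regions held 3589 RPM in the control and 2998 RPM with KDM5A, a ratio of 0.836 (0.823 to 0.848), while crowded ones held 3004 RPM and 2884 RPM, a ratio of 0.960 (0.945 to 0.975). Regions of 1 to 2 kb at the same level showed little of this: 18 of 760 lone, 24 of 1492 between and 11 of 512 crowded regions were lower. Lone regions of 1 to 2 kb were also denser, at a median of 7.464 RPM per kb of width, against 3.797 for lone wide middle regions. This contrast therefore does not separate width from density.

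Wide regions were sorted further by density, the mean RPM per kb of width. Over all 30818 regions used, 2015 (6.54%) were lower and 1902 (6.17%) higher, most of them weak regions with few reads. Among thin wide regions, those under 3 RPM per kb, 67 of 159 lone ones were lower (42.1%), against 18 of 236 between and 11 of 117 crowded ones (9.40%). Lone thin wide regions went from a sum of 1124 RPM to 812 RPM, a ratio of 0.723 (0.703 to 0.743), while crowded ones stayed near their sum, at 744 RPM and 747 RPM, a ratio of 1.004 (0.973 to 1.04). The contrast held at matched level: of thin wide regions of 5 to 20 RPM, 38 of 95 lone and 5 of 84 crowded ones were lower. At 10 RPM per kb or more, 0 of 8778 wide regions were lower or higher, and the medians were −0.15 for lone, −0.15 for between and −0.15 for crowded regions. A region of 2 kb or more at this density holds at least 20 RPM, so all of these were strong. Their contrast with thin regions therefore does not separate density from level.

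**Figure D1:**
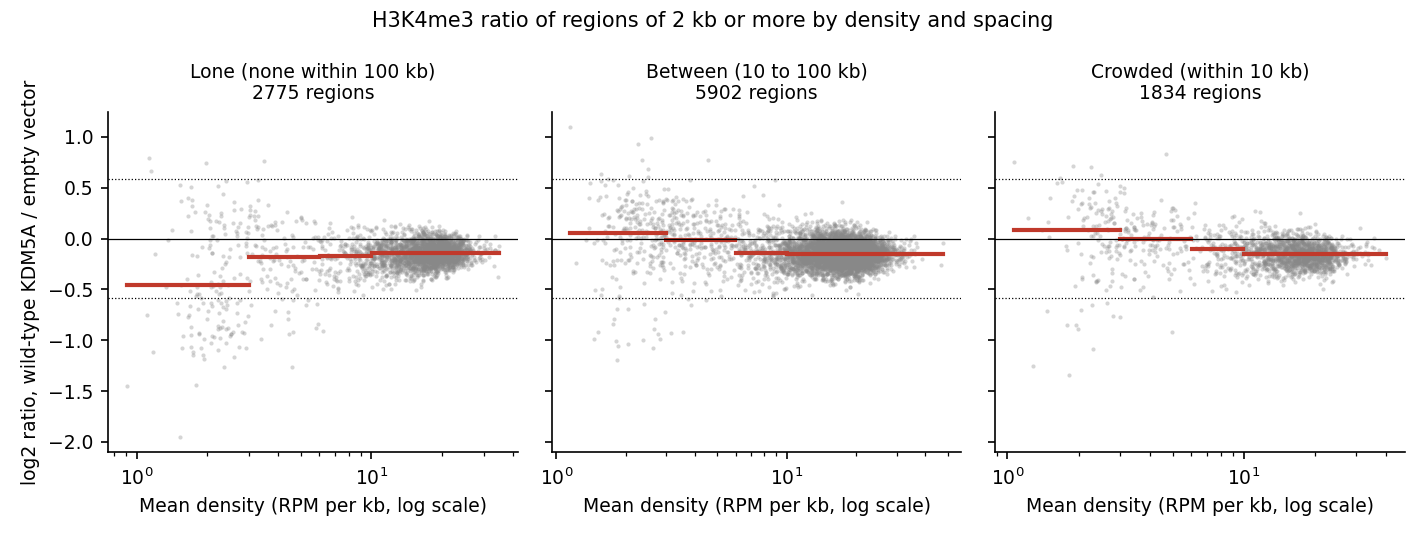
Each point is a region of 2 kb or more, with its mean density on a log axis (RPM per kb) against the log2 ratio of wild-type KDM5A to empty vector; red bars are medians under 3, from 3 to 6, from 6 to 10 and from 10 RPM per kb, and dotted lines mark 1.5-fold. The lowest-density bar drops to −0.46 in the lone panel and stays at 0.057 and 0.085 in the between and crowded panels, while the densest bars sit near −0.15 in each.

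Thin wide regions were also sorted by their distance to the nearest strong region. This grouping was chosen after the values were seen. Within 5 kb of a strong region, 50 thin wide regions had a median log2 ratio of 0.20 and a summed ratio of 1.05 (1.005 to 1.10). Their levels ran from 2.24 to 14.1 RPM (median 6.63) with the empty vector and from 2.67 to 15.3 RPM (median 6.50) with wild-type KDM5A, so the groups overlapped almost entirely. At 5 to 20 kb the median was 0.10 (95 regions), at 20 to 100 kb 0.020 (203 regions) and at 100 to 500 kb −0.10 (115 regions), where 36 were lower. Beyond 500 kb, 49 regions had a median of −0.73, 32 of them were lower (65.3%), and their sum went from 408 RPM to 229 RPM, a ratio of 0.561 (0.534 to 0.590). Regions of 3 to 10 RPM per kb gave medians from −0.052 within 5 kb to −0.24 beyond 500 kb. Dense wide regions, of 10 RPM per kb or more and all strong, had no such order, with −0.16 within 5 kb and −0.16 beyond 500 kb.

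**Figure D2:**
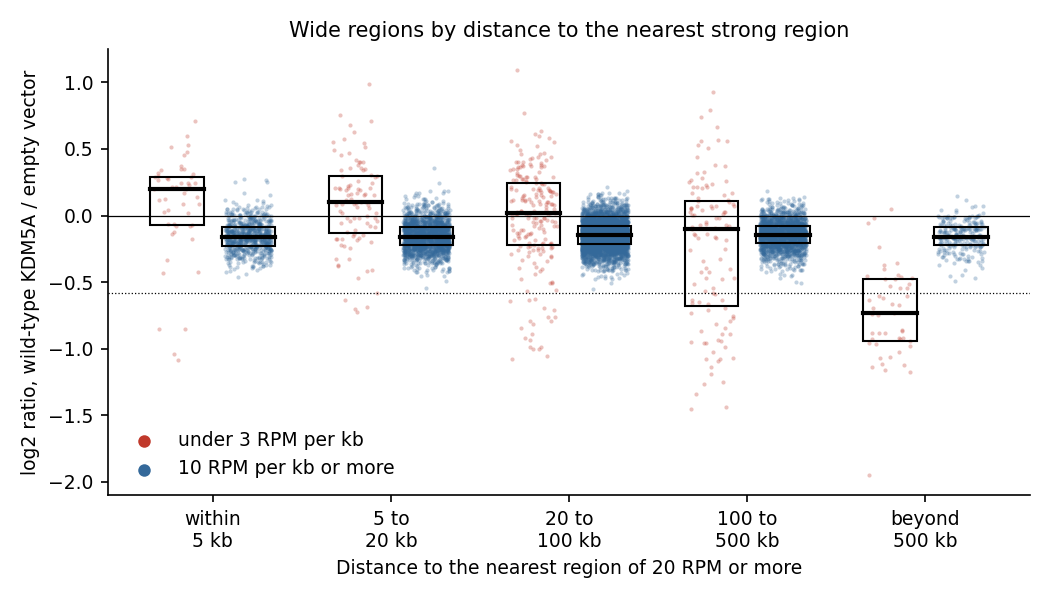
Log2 ratio of wild-type KDM5A to empty vector (vertical axis) of wide regions in 5 classes of distance to the nearest strong region (horizontal axis); points are regions, boxes are quartiles with the median as a thick line, and the dotted line marks 1.5-fold lower. Thin regions (red) go from a median of 0.20 within 5 kb to −0.73 beyond 500 kb, and dense regions (blue) stay near −0.15.

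All 49 thin wide regions beyond 500 kb from a strong region could be placed, 42 at a gene start and 7 inside a gene, in 45 genes. With the empty vector they ran from 3.45 to 15.3 RPM (median 7.84) and with wild-type KDM5A from 1.75 to 7.93 RPM (median 4.61). With the mutant they ran from 1.01 to 7.47 RPM (median 4.14). Set against the same empty vector library, the mutant was lower in 42 of 49, with a median log2 ratio of −0.97. Both comparisons share that library and are not independent. For wild-type KDM5A the log2 ratio was below 0 in 48 of 49. In 31 its counting interval lay wholly below the median ratio of the strong regions.

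Grouped by role after their names were known, 24 of these regions lay at or in 21 genes for cell-surface, adhesion or axon guidance proteins, and 15 of the 24 regions were lower, a share close to the 65.3% of all 49. PCDH10, a protocadherin of the cell surface, went from 8.77 RPM (empty vector) to 1.75 RPM (wild-type KDM5A), 5.01-fold lower (3.04 to 8.69), at chromosome 4, 134071343 to 134074323, and the nearest strong region was 4056 kb away. CDH2, N-cadherin, had 15.3 and 6.91 RPM, 2.22-fold lower (1.68 to 2.95), at chromosome 18, 25755123 to 25758513. The latrophilin genes, adhesion G-protein-coupled receptors, showed 12.9 and 5.81 RPM at ADGRL2 and 7.47 and 3.59 RPM at ADGRL3. Among Eph receptors, which read ephrins on neighbouring cells, EPHA7 went from 14.3 to 6.91 RPM (2.07-fold lower, 1.56 to 2.76), while EPHA6 had 8.77 and 6.63 RPM and an interval for the ratio, 0.548 to 1.04, that includes 1. UNC5C, a netrin receptor, had 7.84 and 5.16 RPM, and ERBB4, a neuregulin receptor, 11.6 and 7.37 RPM. TENM4, a teneurin, had 11.01 RPM and 7.003 RPM and was called lower, but its relative TENM3, with 5.41 and 3.69 RPM, was not.

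Transcription factor genes gave 10 of the 49 regions, and 8 of the 10 were lower. MEIS1, a homeobox cofactor of HOX proteins, had 9.99 and 4.15 RPM, 2.41-fold lower (1.69 to 3.49). SOX5, an SRY-box factor, had 8.40 and 3.96 RPM. GLI3, the Hedgehog pathway factor, had 6.81 and 4.699 RPM and TSHZ3 5.51 and 4.15 RPM, and neither passed 1.5-fold. The remaining 15 regions, of which 9 were lower, included WNT5A, a secreted Wnt ligand, with 10.9 and 5.71 RPM, and the phosphodiesterase gene PDE10A with 15.2 and 7.93 RPM.

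Regions inside genes varied. PCDH7 had 4 thin regions on chromosome 4: those at its start had 7.93 and 5.53 RPM (0.492 to 0.981 for the ratio) and 5.69 and 4.15 RPM (0.484 to 1.09), and those deeper in the gene had 5.41 and 5.62 RPM (0.713 to 1.51) and 3.45 and 3.41 RPM (0.609 to 1.601). None of the 4 passed 1.5-fold. At GRID1, a glutamate receptor subunit gene, the inner region had 5.60 and 5.34 RPM. AUTS2, a gene of neuronal development, was lower at its start, with 14.5 and 6.08 RPM, and also 1093 kb away in the gene body, with 9.52 and 4.699 RPM (2.03-fold lower, 1.43 to 2.89).

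**Figure D3:**
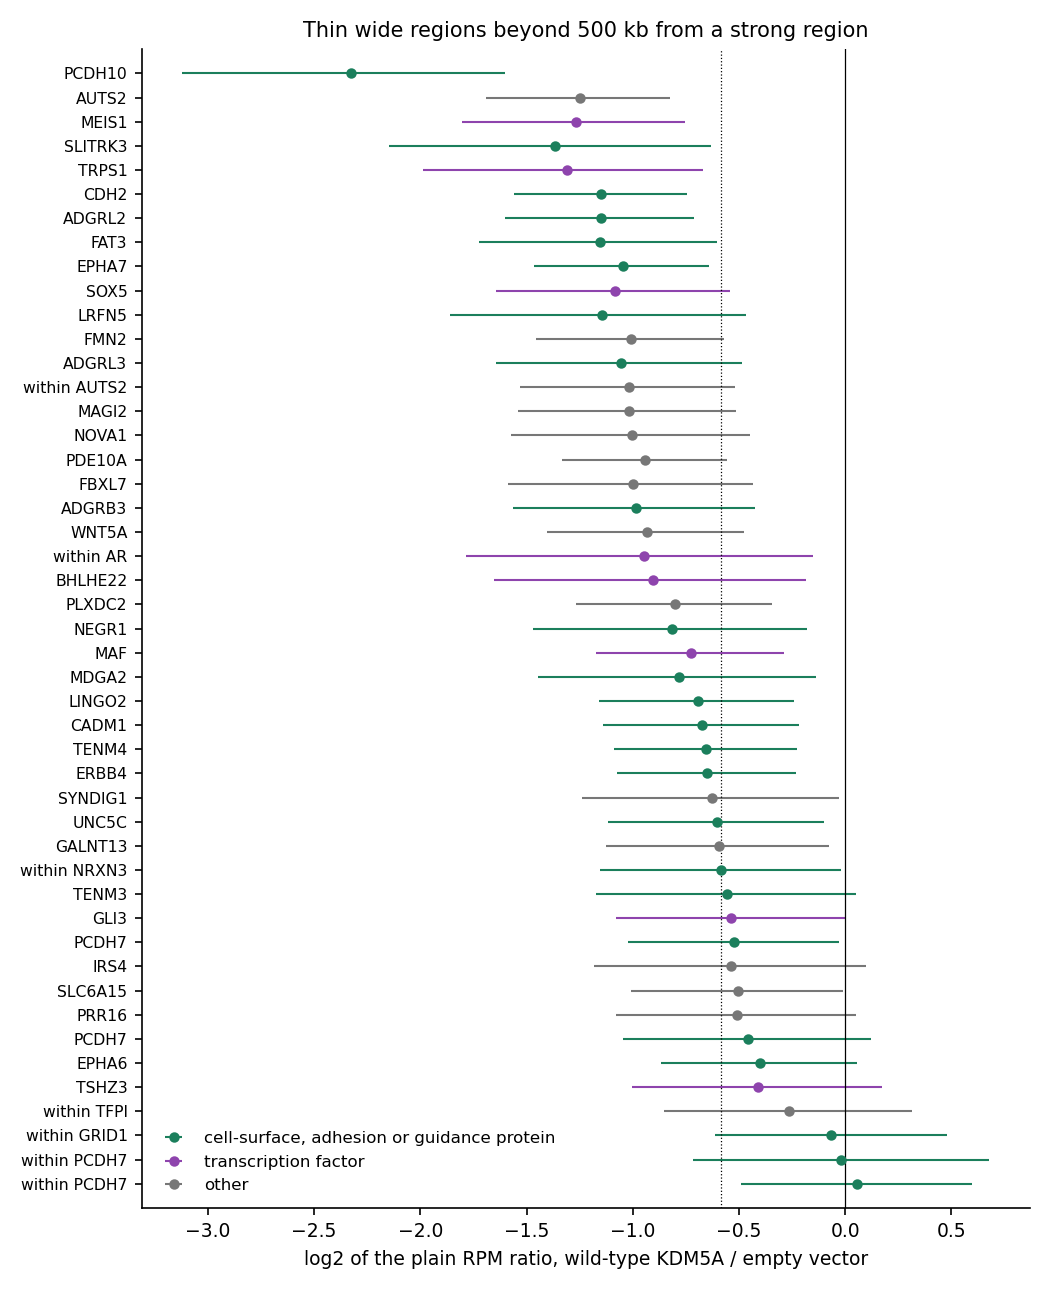
Of the 49 thin wide regions beyond 500 kb from a strong region, 47 are drawn, 1 line each, with the log2 of the plain RPM ratio of wild-type KDM5A to empty vector on the horizontal axis and 95% counting intervals as bars; colours give the role of the gene and the dotted line marks 1.5-fold lower. PCDH10 is at the top with a 5.01-fold lower level, and the bottom 4 lines are regions inside TFPI, GRID1 and PCDH7.

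By rule, the 24 lowest and 12 highest ratios among regions of 5 RPM or more were named, and they were picked for being extreme, which their intervals do not allow for. Of the 24 lowest, 22 lay at gene starts, 1 inside HOXC4 and 1 without a gene at chromosome 6, 31334457 to 31335350. They ran from 7.37 to 16.2 RPM in the control and from 3.04 to 7.83 RPM with KDM5A, 2.07-fold to 2.83-fold lower, and in 23 of 24 the interval lay wholly past 1.5-fold. Of these 24, 17 were wide, close to the 68.4% of all regions of 5 RPM or more. No other wide region lay within 100 kb of 15 of them, against 27.2% of all. Under 3 RPM per kb were 17 of any width. Over all regions of 5 RPM or more, only wide ones of that density were counted (2.18%). The mutant library also lay below the empty vector library in all 24, and above it in all 12 of the highest. Both comparisons share the 1 empty vector library and are not independent. Whether these changes are particular to wild-type KDM5A was not tested.

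Several of the named starts belong to developmental transcription factors. POU3F3, a POU-domain factor of the developing brain, had 10.2 RPM in the empty vector library and 3.59 RPM in the other, 2.83-fold lower (1.95 to 4.19). The region lay at chromosome 2, 105471082 to 105474514. Its promoter printed above, from the other build, holds 18 CpG, and whether those bases lie inside the region was not examined. EN1, the engrailed homeobox gene, had 12.2 and 5.16 RPM, 2.37-fold lower (1.72 to 3.30), and TBX2, a T-box repressor, 14.2 and 6.27 RPM, 2.26-fold lower (1.69 to 3.06). At POU4F1, a factor of sensory neurons, the levels were 10.2 and 4.52 RPM, at OLIG2, the oligodendrocyte lineage factor, 14.4 and 6.63 RPM, and at SALL1, a zinc finger factor of kidney development, 15.96 and 7.46 RPM. These genes were among those picked for the lowest ratios.

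Chromatin, signalling and metabolic genes made up the remainder. ASXL3, a Polycomb-associated chromatin gene, had 14.9 and 5.81 RPM, 2.57-fold lower (1.91 to 3.501), at chromosome 18, 31157559 to 31159561. PKDCC, a secreted kinase, had 8.31 and 3.04 RPM, and MAST4, a microtubule-associated kinase, 8.59 and 3.502 RPM. KCNJ4, an inward rectifier potassium channel, had 8.87 and 3.69 RPM although a strong region lay 11.3 kb away. CBS, the cystathionine beta-synthase of transsulfuration, had 11.4 and 5.34 RPM, and GALNT16, a glycosyltransferase of mucin-type O-glycosylation, 9.52 and 4.15 RPM. The other named starts were FAT3, HDGFL3, TMEM178B and LINC00649.

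**Figure D4:**
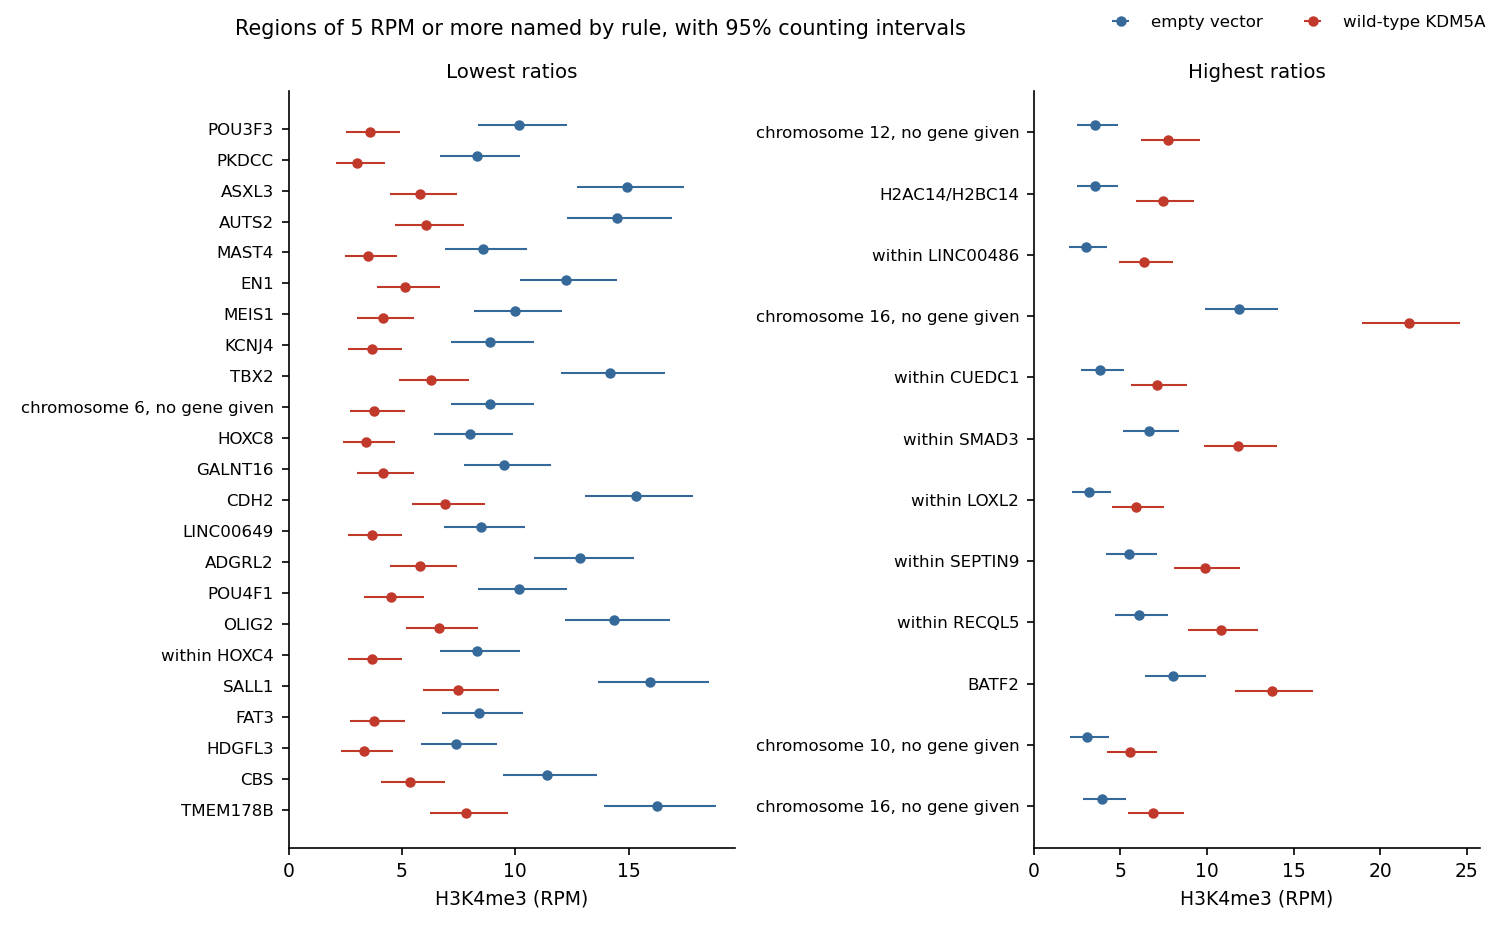
H3K4me3 level (RPM, horizontal axis) of 23 of the 24 lowest and of the 12 highest ratios among regions of 5 RPM or more, with empty vector in blue, wild-type KDM5A in red and 95% counting intervals as bars. In the left panel wild-type levels lie between 3.04 and 7.83 RPM, and in the right panel between 5.53 and 21.7 RPM.

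Some HOX regions were lower although other regions lay close by. They were picked out after their values were seen, and HOX regions that were not called were not counted. HOXC8 had 8.03 and 3.41 RPM, 2.36-fold lower (1.58 to 3.56), with another wide region 4.16 kb away. HOXC10 had 13.2 and 7.46 RPM and HOXD13 6.53 and 3.502 RPM, both also crowded. Inside HOXC4 a region 3.61 kb from a strong one had 8.31 and 3.69 RPM. POU3F3 too was crowded, with a wide region 0.886 kb away, but its nearest strong region lay 179 kb off. Regions within 20 kb of the 24 lowest numbered 26, with a median log2 ratio of −0.31. Of these 7 were lower (26.9%), against 6.54% of all regions and 11.9% of weak ones. The 12 of them at 5 RPM or more had a median of −0.21, and 1 was lower (8.33%), against 0.96% of all at that level.

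Strong regions were reduced past 1.5-fold at TLE4, ADAMTS1, EN2, ADCY9 and an unplaced site at chromosome 7, 154719424 to 154721153. TLE4 is a Groucho-family corepressor, and its 3977 bp region at chromosome 9, 82185140 to 82189116, stood alone, with the nearest strong region 1271 kb away and a density of 6.199 RPM per kb against a median of 17.4 over strong regions. ADAMTS1, a secreted metalloprotease, lay 670.2 kb from a strong region with 4.40 RPM per kb, and EN2, the second engrailed gene, had 36.8 and 23.3 RPM, 1.58-fold lower (1.34 to 1.86). ADCY9, an adenylyl cyclase, had 25.9 and 16.8 RPM. CLSTN3, a calsyntenin, was next, with 26.98 and 18.1 RPM (1.49-fold lower, 1.24 to 1.80), short of the threshold.

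Higher regions lay closer to strong regions than lower ones did. A strong region lay within 20 kb of 17 of the 30 higher regions (56.7%) and of 27 of the 145 lower ones (18.6%), against 29.6% of all regions of 5 RPM or more. The nearest strong region was more than 100 kb away for 75 of the 145 lower (51.7%) and 3 of the 30 higher regions, against 25.9% of all. These shares are not matched for level: 10882 of the 15108 regions were strong, while nearly all called ones were middle. With the empty vector, the higher regions had a median of 3.97 RPM and the lower ones 10.55 RPM. With wild-type KDM5A the order was reversed, at 7.049 RPM for the higher and 5.805 RPM for the lower regions. Regions were called by the ratio of these same libraries, so a low empty vector level in higher regions is built in. These medians therefore do not show that the starting level differed between the groups. Of the 30 higher regions 11 could not be placed, and of the 145 lower ones 73, so shares at starts and inside genes were not compared.

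The 12 highest ratios were 1.71-fold to 2.18-fold higher, and in none of them did the interval lie wholly past 1.5-fold. The start shared by the replication-dependent histone genes H2AC14 and H2BC14 had 3.55 and 7.46 RPM, 2.10-fold higher (1.41 to 3.18). BATF2, an interferon-induced leucine zipper factor, had 8.03 and 13.7 RPM, 1.71-fold higher (1.303 to 2.26), at chromosome 11, 64763664 to 64764861. IRF7, the interferon regulatory factor, was the highest of the strong regions, with 19.8 and 29.9 RPM, but did not pass 1.5-fold with the pseudocount. Inside SMAD3, a transducer of TGF-beta signals, a region had 6.63 and 11.8 RPM (1.78-fold, 1.32 to 2.41), and inside SEPTIN9, a cytoskeletal GTPase, one had 5.51 and 9.86 RPM. Among the other strong regions, TMEM61 had 21.1 and 26.1 RPM, MVP, the major vault protein, 36.6 and 44.4 RPM, and XPR1, a phosphate exporter, 30.3 and 36.7 RPM, all within 1.24-fold. Regions within 20 kb of the 12 highest had a median of −0.089 (32 regions), and at 5 RPM or more none of 15 was past 1.5-fold in either direction.

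Listed genes were also read at their starts. All 18 housekeeping genes had a strong region at their start, none passed 1.5-fold, and their median log2 ratio was −0.17. GAPDH, for example, had 105 and 88.6 RPM and ACTB 75.05 and 71.8 RPM. KDM5B and KDM5C, the paralogs of KDM5A, had 64.7 and 56.95 RPM and 35.2 and 33.7 RPM. KDM1A, which removes lower methylation states of the same lysine, had 66.5 and 59.2 RPM, and SMYD2, the methyltransferase in the series title, 54.05 and 50.5 RPM. The 6 colon epithelial genes with a region had a median of −0.14.

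Of 30 patterning transcription factors, chosen in part with earlier results of these data known, 26 had a region at their start, and 12 of the 26 were lower, against 6.54% of all regions, and their median was −0.48. Because of that choice the count is a description only. Within this chosen list, all 10 regions under 3 RPM per kb were lower, and 1 of 11 strong ones, EN2, was. Those 10 are not limited to wide regions. Over all wide regions of that density, 96 of 512 were lower (18.8%). LHX8, a LIM-homeobox factor, had 8.96 and 2.86 RPM, DLX5 6.63 and 2.95 RPM, and HAND2, in a narrow region, 2.80 and 1.29 RPM. Strong members in the same list differed less: SOX9, which is active in intestinal epithelium, had 122 and 101 RPM (0.826, 0.762 to 0.896), GATA6 98.01 and 82.2 RPM and MSX1 78.6 and 67.1 RPM. SOX2 had 10.7 and 7.37 RPM and LHX2 13.4 and 12.8 RPM, and neither passed 1.5-fold.

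**Figure D5:**
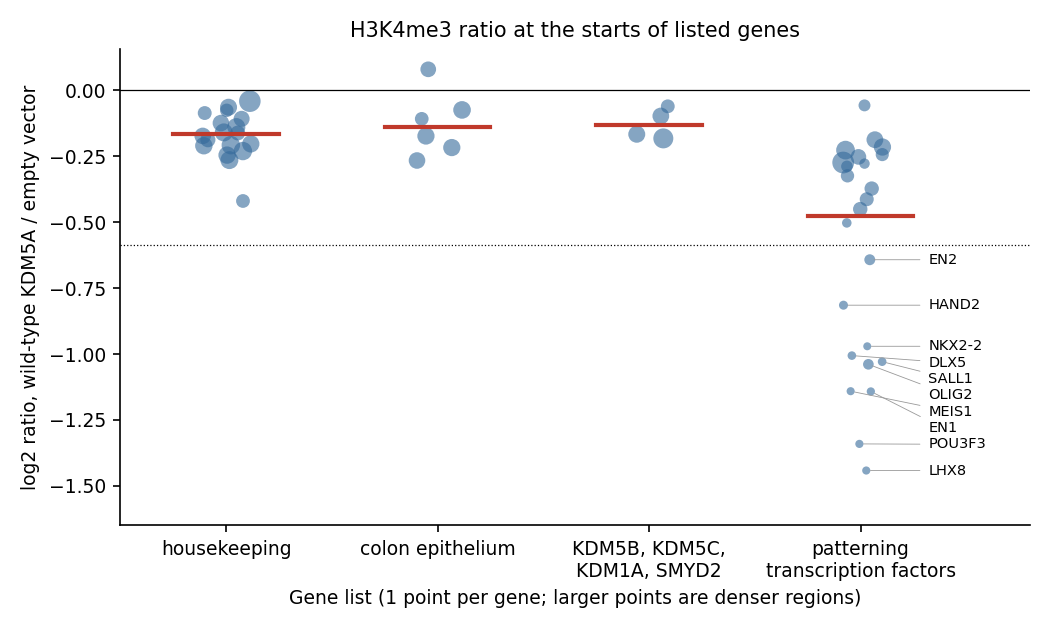
Log2 ratio of wild-type KDM5A to empty vector at the start of each listed gene with a region (vertical axis), by gene list; each point is a gene (24 of the 26 patterning factors with a region are drawn), its area grows with density, red bars are medians of the whole lists and the dotted line marks 1.5-fold lower. Housekeeping and colon genes cluster near −0.15, and the named patterning factors, mostly small points, lie below the dotted line.

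Of 1253 broad regions, of 4 kb or more, 9 were lower and none higher, against 0.96% lower over all regions of 5 RPM or more, with a median of −0.16. Most broad regions were strong, with 3 of 1215 lower, while 6 of 38 broad middle regions were lower (15.8%). Narrow regions, under 1 kb, had a median of −0.15 within 1 kb of a wide region (165 regions), 0.051 at 5 to 20 kb (2284 regions) and −0.011 beyond 100 kb (4646 regions). Their summed ratios ran from 0.921 (0.864 to 0.981) within 1 kb to 1.007 at 5 to 20 kb. By chromosome, 21 had the highest share of lower regions of 5 RPM or more, 9 of 151 (5.96%), against 0.96% over all chromosomes, and 8 the lowest, 1 of 561 (0.178%). The 9 regions on 21 include ADAMTS1, OLIG2, CBS, LINC00649, JAM2 and HUNK, and 3 could not be placed.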

How the data were processed

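H3K4me3 ChIP-seq libraries of 3 transfections were compared over 1 table of regions, whose values are RPM as deposited by the authors. Per the submitters' processing notes the build was hg19 and the tools listed were deepTools 3.5.6, Bowtie2 2.5.4, HOMER, MACS2 and MACS. How peaks were called or reads counted is not given in the sources used here. In its header the empty vector column is labelled H3K4me4, taken as a slip for H3K4me3. No background was subtracted, and the input and IgG samples were not used here.

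Each RPM value was a whole multiple of a step of 0.0933 (empty vector), 0.0921 (wild-type) or 0.101 (mutant), within 0.02 reads, so reads were recovered and used only for Poisson intervals of levels and exact conditional (Clopper-Pearson) 95% intervals of ratios. No count model was fitted, with 1 library a side. Folds are plain RPM ratios; log2 ratios and calls add 0.7 RPM, which understates changes of weak regions. A single library value of 0 allows up to 3 reads, or 0.280, 0.276 and 0.303 RPM. RPM fixes each library's total, so a loss at all regions and fewer reads on target give the same values.

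Named by rule were the 24 lowest and 12 highest log2 ratios at 5 RPM or more and the 6 lowest and 6 highest of strong regions. The members, lists and classes were chosen with earlier results of these data known, and the classes by density and by distance to a strong region, and the roles of genes, after the values were seen. Alternatives were other pseudocounts, centring, autosomes, classes from the mutant library, a 2-fold threshold, other spacing and width limits, and no filter. The calling step was tested on simulated data. Tools were scipy 1.17.1, pandas 2.3.3, numpy 2.4.6 and matplotlib 3.10.9 under Python 3.11.15. Results that name a few genes are not reported here, and their regions stay in the counts.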

Additional observations from a re-analysis of the deposited data

How the results depend on the processing

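Of 51 alternative values, 29 stayed within 1.5 times the main value (or, for the difference of medians, kept its size). The balance of calls turned under centring, from 145 lower and 30 higher to 74 and 84 (82.9% to 46.8% lower). The count of lower regions, 145, was 63 with a pseudocount of 3.5 RPM, 74 after centring on the strong regions, 22 at 2-fold and 2015 with no filter on low values. The count of higher regions, 30, was 48 and 5 with pseudocounts of 0.07 and 3.5 RPM, 84 after centring, 0 at 2-fold and 1902 with no filter. Centring moved the median of all regions by 0.149.

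Lone wide middle regions that were lower, 52, numbered 33 with 3.5 RPM, 34 after centring, 34 when classed by the mutant library alone and 11 at 2-fold. Crowded ones, 7, numbered 3 when classed by the mutant library, 2 at 2-fold and 16 with wide set at 1.5 kb. The lone minus crowded median, −0.165, ran from −0.18 to −0.12 over its 7 alternatives. Thin wide regions beyond 500 kb from a strong region that were lower, 32, numbered 9 at 2-fold and 51 (of 81) with wide at 1.5 kb. Those within 20 kb of one, 8, numbered 2 with 3.5 RPM, 4 after centring, 2 at 2-fold and 17 (of 346) with wide at 1.5 kb. The cause of these moves was not tested, apart from those that follow from the threshold, filter or width itself. The alternatives for thin regions were chosen after seeing the data.

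No paired analysis was possible because each group holds 1 library, and leaving out a replicate was not run for the same reason. Depth limits weak regions: 1870 of 15710 were lower and 1872 higher, with a median of 0.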
